A study of Arabidopsis thaliana with 12 samples.

Results

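A set of 10 genes of the phosphate starvation pathway was followed in seedlings of an Arabidopsis eif4e mutant and of wild type, at the level of total mRNA and of mRNA bound to immunopurified ribosomes. The genes were taken by identifier as known components of the pathway, at a time when earlier results of these data were known. All 10 genes were listed in each of the 12 libraries, out of 25835 genes in the series. They are IPS1 (AT3G09922), At4 (AT5G03545), MIR399d (AT2G34202), PHO2 (AT2G33770), PHR1 (AT4G28610), SPX1 (AT5G20150), SPX2 (AT2G26660), SPX3 (AT2G45130), PHO1 (AT3G23430) and PHT1;4 (AT2G38940). The groups were ribosome-bound mRNA of the eif4e mutant and of wild type, and total mRNA of the eif4e mutant and of wild type, with 3 libraries in each. All seedlings were of the Columbia ecotype, were 9 days old, grew at 22 °C in long days (16 h light, 8 h dark), and were frozen whole at zeitgeber time 16 h, before lights off. The labels give neither the mutant allele nor the line used to purify ribosomes, and do not say whether replicates were separate cultures, so p-values measure the spread between these libraries only. In such bulk samples fewer cells of a type and less RNA per cell cannot be told apart.

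Plants that run short of phosphate switch on a conserved set of genes through the MYB factor PHR1. SPX proteins hold PHR1 back while phosphate is plentiful. Among the genes switched on are those for the microRNA miR399, which cleaves the transcript of PHO2, and the transcripts IPS1 and At4, which carry an uncleavable copy of the miR399 site and so sequester the microRNA. PHO2 is a ubiquitin-conjugating enzyme that marks the phosphate exporter PHO1 and uptake carriers of the PHT1 family for breakdown. The labels mention no phosphate treatment, so the levels below are those of the growth conditions shared by both genotypes.

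The 12 libraries held 17058704 to 24673644 counts each, and 19170 genes with a mean of at least 1 FPKM (a count scaled to gene length and library size) over the libraries were tested, among them all 10 phosphate genes. EIF4E1 (AT4G18040), named by the mutant, stood at 8.28, 24.2 and 8.29 FPKM in total mRNA of the mutant and at 44.0 to 45.8 FPKM in wild type. On ribosomes it stood at 11.6 to 13.9 FPKM in the mutant and at 71.8 to 92.9 FPKM in wild type. The second total mutant library thus held more EIF4E1 mRNA than the other 2, and calls of the genotype comparisons that change without it are named. Markers of both organs of a seedling were present. All 24 root markers and all 10 shoot markers had counts in every group.

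In total mRNA At4 and SPX3 were lower in the mutant. They were 2 of the 10 phosphate genes past the threshold (edgeR's quasi-likelihood test, Benjamini-Hochberg adjusted p under 0.05 over all tested genes), where 17% of all tested genes passed (10.4% higher and 6.54% lower). With the replicate number as a block, which compares libraries of the same number, 4 passed, all of them lower, IPS1 and PHT1;4 being the additional ones, and 31.8% of all tested genes passed (15% lower). On ribosomes 6 of the 10 passed, where 27.3% of all tested genes did. IPS1, At4, MIR399d, SPX3 and PHT1;4 were lower in the mutant (5 genes, where 12% of tested genes were lower), and PHO2 alone was higher (1 gene, where 15.4% were higher). The median log2 change of the 10 genes was -0.19 in total mRNA and -0.25 on ribosomes, beside medians of -0.0035 and 0.0080 over all tested genes. Because the 10 were chosen with earlier results of these data known, their counts and direction are not independent evidence.

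**Figure D1:**
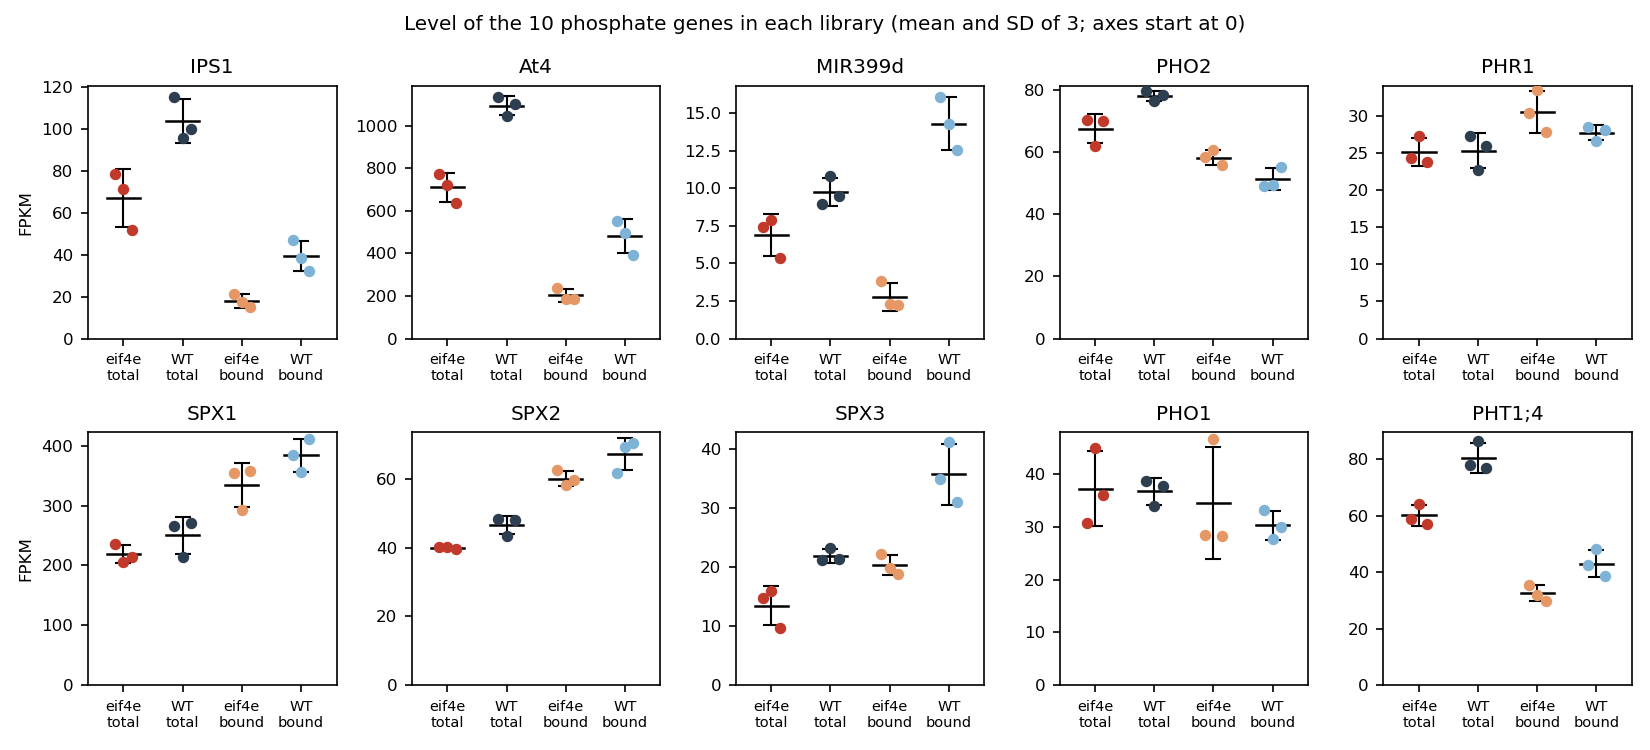
FPKM (vertical axes, starting at 0) of the 10 phosphate genes in each of the 12 libraries. Points are libraries of eif4e total, WT total, eif4e ribosome-bound and WT ribosome-bound mRNA, and black lines are the mean and SD of 3. IPS1, At4 and MIR399d sit lowest in ribosome-bound mRNA of the mutant, where MIR399d averaged 2.79 FPKM against 14.3 FPKM in ribosome-bound WT.

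Both miR399 mimics fell on ribosomes of the mutant, and At4 also fell in total mRNA. At4, the more abundant mimic, had 772, 724 and 636 FPKM in total mRNA of the mutant, against 1135, 1046 and 1101 FPKM in wild type. Every mutant library lay below every wild-type library. The log2 change was -0.49 ± 0.13 (SE, edgeR adjusted p = 0.030). On ribosomes At4 had 237, 184 and 186 FPKM in the mutant, against 554, 496 and 394 FPKM in wild type. The groups again did not overlap, and the change there was -1.20 ± 0.14 (edgeR adjusted p = 6.8e-04), or 2.30-fold lower. The call in total mRNA depended on total wild type 1, 2 and 3 (edgeR adjusted p = 0.0908, 0.0692 and 0.0639 without each) and on mutant 2 and 3 (0.065 and 0.107), while that on ribosomes was kept without any 1 library.

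IPS1, the second mimic, had 78.3, 71.3 and 51.6 FPKM in total mRNA of the mutant and 115, 95.4 and 100.2 FPKM in wild type. The groups did not overlap, but the log2 change of -0.50 ± 0.17 missed the threshold (edgeR adjusted p = 0.068) and passed with the replicate block (-0.52 ± 0.08, adjusted p = 7.6e-04). On ribosomes IPS1 had 21.3, 17.5 and 14.8 FPKM in the mutant and 46.9, 38.5 and 32.4 FPKM in wild type. That fall, -1.10 ± 0.19 (edgeR adjusted p = 0.0030) or 2.14-fold, was kept without any 1 library. The ratio of At4 to IPS1 in FPKM moved little, between 9.83 and 12.9 over the 12 libraries. In ribosome-bound mRNA it was 11.2, 10.6 and 12.5 in the mutant and 11.8, 12.9 and 12.2 in wild type.

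MIR399d gave the largest difference of the 10 genes. Reads in a poly(A)-selected library come from the primary transcript of a microRNA gene and not from the mature microRNA, and the counts were low. On ribosomes MIR399d had 8, 5 and 5 counts in the mutant, against 33, 36 and 24 counts in wild type. These are 3.86, 2.30 and 2.20 FPKM in the mutant and 16.1, 14.3 and 12.6 FPKM in wild type, with a wide gap between the groups. The log2 change was -2.31 ± 0.27 (edgeR adjusted p = 7.4e-04), or 4.94-fold lower, and 32 of the 19170 tested genes had a lower value. In total mRNA MIR399d had 15, 14 and 11 counts in the mutant and 20, 24 and 22 counts in wild type, or 7.45, 7.91 and 5.34 FPKM in the mutant and 8.97, 10.8 and 9.52 FPKM in wild type, again without overlap. Its log2 change there was -0.38 ± 0.25 and did not pass (edgeR adjusted p = 0.343).

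The difference of these changes, ribosome-bound minus total, was -1.93 ± 0.37 for MIR399d (edgeR adjusted p = 0.022), the single gene of the 10 to pass where 4.03% of tested genes did (1.67% higher and 2.35% lower). The call was lost without total wild type 1 or 3 (adjusted p = 0.0666 and 0.0559), total mutant 2 (0.0616), ribosome-bound wild type 1 (0.0588) or ribosome-bound mutant 2 (0.0588). It was also lost without replicate 1, 2 or 3 of every group (edgeR adjusted p = 0.309, 0.248 and 0.0928). With the replicate block 4 of the 10 passed, where 10.1% of all tested genes did. These were MIR399d (-1.92 ± 0.39, edgeR adjusted p = 0.0135), At4 (-0.70 ± 0.12, adjusted p = 0.0070), IPS1 (-0.58 ± 0.13, adjusted p = 0.0177) and PHO2 (0.31 ± 0.09, adjusted p = 0.0445). Without the block At4 (-0.71 ± 0.19, adjusted p = 0.062), IPS1 (-0.60 ± 0.25, adjusted p = 0.211) and PHO2 (0.31 ± 0.10, adjusted p = 0.096) missed the threshold. At4 passed without ribosome-bound wild type 3 (0.0258).

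PHO2, the transcript that miR399 cleaves, was the single phosphate gene higher on ribosomes of the mutant. It had 58.3, 60.5 and 55.7 FPKM there, against 49.2, 49.3 and 55.3 FPKM in wild type. The groups were separated by less than 1 FPKM, and the log2 change was 0.23 ± 0.07 (edgeR adjusted p = 0.031). In total mRNA PHO2 had 70.3, 62.0 and 70.1 FPKM in the mutant and 79.6, 76.5 and 78.2 FPKM in wild type. These FPKM values, which the authors scaled to the whole library, did not overlap. After TMM scaling, which sets the bulk of genes level, the log2 change was -0.08 ± 0.07 and did not pass (edgeR adjusted p = 0.43). The call on ribosomes was lost without ribosome-bound wild type 1 or 2 (edgeR adjusted p = 0.101 and 0.0994) or ribosome-bound mutant 1 or 2 (0.0805 and 0.0661), and with scaling by library size alone (0.0741).

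**Figure D2:**
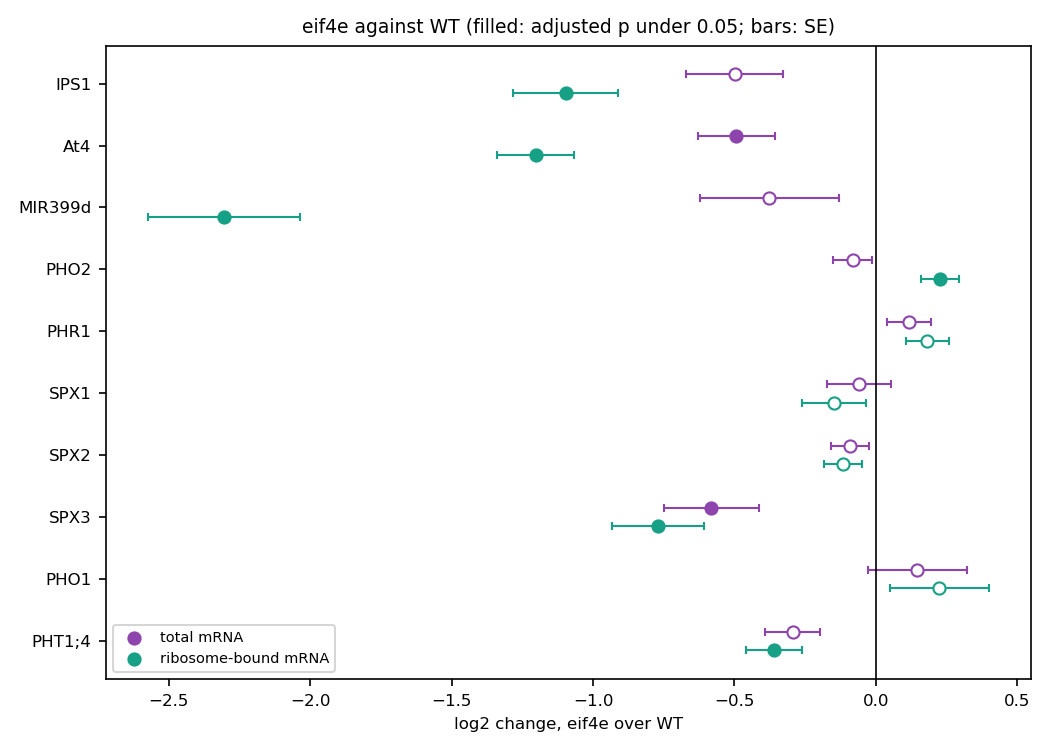
Log2 change of each phosphate gene in eif4e over WT (horizontal axis), in total mRNA and in ribosome-bound mRNA. Filled points passed at an adjusted p under 0.05, open points did not, and bars are SE. The ribosome-bound value of MIR399d, -2.31, lies far left of its total value, -0.38, and PHO2 is the filled point right of 0.

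Of the regulators, PHR1 differed little between the genotypes. It had 24.3, 27.2 and 23.8 FPKM in total mRNA of the mutant and 27.3, 22.7 and 25.9 FPKM in wild type. On ribosomes PHR1 had 30.4, 33.5 and 27.8 FPKM in the mutant and 28.5, 26.7 and 28.1 FPKM in wild type. Both pairs of groups overlapped, and the log2 changes of 0.12 ± 0.08 (edgeR adjusted p = 0.305) and 0.18 ± 0.08 (adjusted p = 0.0969) did not pass. The annotated span of PHR1 overlaps that of AT4G28600, and the handling of reads in the shared stretch is not known here, so its values are uncertain.

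The SPX genes, whose products sense the phosphate state and inhibit PHR1, did not move as a group. SPX3, itself strongly induced by phosphate shortage, was the 1 of the 3 that passed. It had 14.8, 15.9 and 9.64 FPKM in total mRNA of the mutant and 21.2, 23.3 and 21.3 FPKM in wild type, with no overlap. The log2 change was -0.58 ± 0.17 (edgeR adjusted p = 0.037). On ribosomes SPX3 had 22.3, 19.9 and 18.8 FPKM in the mutant and 34.9, 41.2 and 31.1 FPKM in wild type, a change of -0.77 ± 0.16 (edgeR adjusted p = 0.0072) that was kept without any 1 library. In total mRNA the call was lost on leaving out wild type 1, 2 or 3 (edgeR adjusted p = 0.0793, 0.112 and 0.0633), mutant 1 or 3 (0.052 and 0.0833) or ribosome-bound wild type 1 (0.0513).

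SPX1, the most abundant of the 3, had 236, 206 and 215 FPKM in total mRNA of the mutant and 266, 214 and 270.3 FPKM in wild type. On ribosomes it had 354, 293 and 358 FPKM in the mutant and 385, 356 and 411 FPKM in wild type. The groups overlapped at both levels, with log2 changes of -0.06 ± 0.11 (edgeR adjusted p = 0.742) and -0.15 ± 0.11 (adjusted p = 0.349). SPX2 had 40.3, 40.0 and 39.7 FPKM in total mRNA of the mutant and 48.2, 43.5 and 48.1 FPKM in wild type. On ribosomes SPX2 had 62.4, 58.1 and 59.6 FPKM in the mutant and 61.8, 69.3 and 70.5 FPKM in wild type. Its genotypes did not overlap in total mRNA and overlapped on ribosomes. After TMM scaling its log2 changes were -0.09 ± 0.07 (edgeR adjusted p = 0.373) and -0.12 ± 0.07 (adjusted p = 0.214), and neither passed.

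The transport genes parted. PHT1;4, a high-affinity carrier that takes phosphate up into the root, had 58.9, 64.3 and 57.2 FPKM in total mRNA of the mutant and 78.0, 86.7 and 76.9 FPKM in wild type. The groups did not overlap, but the log2 change of -0.29 ± 0.10 missed the threshold (edgeR adjusted p = 0.062) and passed with the replicate block (-0.29 ± 0.07, adjusted p = 0.0102). It also passed in edgeR's test without ribosome-bound wild type 2 or 3 (adjusted p = 0.0417 and 0.0477). On ribosomes PHT1;4 had 35.5, 32.1 and 30.0 FPKM in the mutant and 42.4, 48.1 and 38.5 FPKM in wild type, a change of -0.36 ± 0.10 (edgeR adjusted p = 0.022). That call was lost without ribosome-bound wild type 1 or 2 (edgeR adjusted p = 0.0501 and 0.0862) or ribosome-bound mutant 2 or 3 (0.0645 and 0.0623).

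PHO1, which exports phosphate into the xylem, was set apart by the second mutant replicate. It had 30.8, 45.0 and 36.0 FPKM in total mRNA of the mutant and 38.6, 33.9 and 37.7 FPKM in wild type. On ribosomes PHO1 had 28.5, 46.8 and 28.3 FPKM in the mutant and 33.3, 27.8 and 30.0 FPKM in wild type. Mutant library 2 was the highest of all at both levels, and the log2 changes of 0.15 ± 0.17 (edgeR adjusted p = 0.585) and 0.22 ± 0.17 (adjusted p = 0.356) did not pass. Leaving out total mutant 2 gave -0.0083 in total mRNA, and leaving out ribosome-bound mutant 2 gave -0.024 on ribosomes. PHT1;1, a carrier outside the 10 that was singled out after its values were seen, stood high in the same replicate. It had 21.5, 42.8 and 25.9 FPKM in total mRNA of the mutant, against 29.3, 26.1 and 28.1 FPKM in wild type. On ribosomes PHT1;1 had 6.33, 13.3 and 8.51 FPKM in the mutant, against 8.46, 8.15 and 7.35 FPKM in wild type. It has near-identical paralogs, so its counts are uncertain.

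Ribosome-bound against total mRNA gives each transcript's level on ribosomes relative to its level in total mRNA, with each library scaled on its own, so it is a relative enrichment and not a share of molecules. Within the mutant 9 of the 10 passed (4 higher and 5 lower on ribosomes), where 58.4% of tested genes passed (29.1% higher and 29.3% lower). Within wild type 9 of the 10 passed (5 higher and 4 lower), where 67.5% of tested genes passed (33.8% higher and 33.6% lower). At4 was scarcer on ribosomes, with a log2 difference of -1.78 ± 0.14 in the mutant (edgeR adjusted p = 2.0e-06) and -1.07 ± 0.14 in wild type (adjusted p = 3.0e-05). IPS1 was scarcer too, at -1.88 ± 0.19 in the mutant (adjusted p = 8.5e-06) and -1.28 ± 0.18 in wild type (adjusted p = 5.2e-05). In the mutant 222 tested genes lay below IPS1 and 259 below At4, and in wild type 894 and 1442 did. The reference annotation lists both as protein-coding, though their known role is as RNA. For comparison, 137 tested long noncoding RNA genes had a median of -0.37 in the mutant and -0.27 in wild type, and 18587 protein-coding genes outside the 10 had a median of -0.0032 in the mutant and 0.0016 in wild type.

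**Figure D3:**
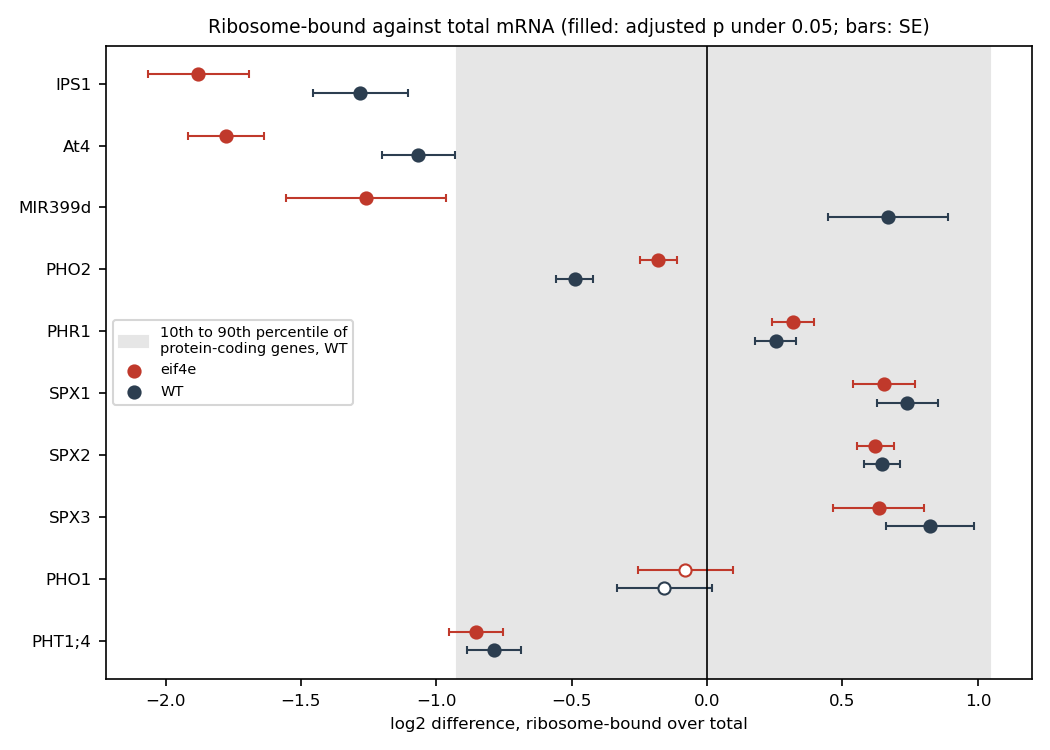
Log2 difference between ribosome-bound and total mRNA (horizontal axis) for each phosphate gene in eif4e and in WT. Filled points passed at an adjusted p under 0.05, bars are SE, and the grey band spans the 10th to 90th percentile of protein-coding genes in WT, -0.93 to 1.04. MIR399d lies left of 0 in eif4e, at -1.26, and right of 0 in WT, at 0.67.

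MIR399d was the 1 gene of the 10 whose difference changed sign between the genotypes. It was lower on ribosomes in the mutant (-1.26 ± 0.30, edgeR adjusted p = 0.0034) and higher on ribosomes in wild type (0.67 ± 0.22, adjusted p = 0.019). The call in wild type was lost without total wild type 1 or 3 (adjusted p = 0.0649 and 0.0553) or ribosome-bound wild type 1 (0.0656), and in DESeq2 (0.09). The median over the other 47 tested microRNA genes was -0.73 in the mutant and -0.59 in wild type, and 14 of the 47 were above 0 in wild type.

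The SPX transcripts were richer on ribosomes than in total mRNA in both genotypes. SPX1 differed by 0.65 ± 0.11 in the mutant and 0.74 ± 0.11 in wild type, SPX2 by 0.62 ± 0.07 and 0.65 ± 0.07, and SPX3 by 0.63 ± 0.17 and 0.82 ± 0.16, each past the threshold of edgeR's test. PHR1 was higher on ribosomes, by 0.32 ± 0.08 in the mutant (edgeR adjusted p = 0.0041) and 0.25 ± 0.08 in wild type (adjusted p = 0.012), the call in wild type being lost without total wild type 2 (0.0541) and with scaling by library size alone (0.211). PHT1;4 was lower on ribosomes, with a difference of -0.85 ± 0.10 in the mutant (adjusted p = 2.7e-05) and -0.79 ± 0.10 in wild type (adjusted p = 2.6e-05). PHO2 was lower as well, at -0.18 ± 0.07 in the mutant (adjusted p = 0.040) and -0.49 ± 0.07 in wild type (adjusted p = 6.1e-05). The call of PHO2 in the mutant was lost on leaving out any 1 total library other than mutant 2, or any 1 ribosome-bound mutant library (adjusted p between 0.0537 and 0.137), and with no filter on low values (0.126). PHO1 did not differ past the threshold in the mutant (-0.08 ± 0.17, adjusted p = 0.718) or in wild type (-0.16 ± 0.17, adjusted p = 0.444).

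The order of the levels over the 4 groups differed between the genes. For IPS1, At4 and PHT1;4 the order from the highest was total wild type, total mutant, ribosome-bound wild type and ribosome-bound mutant, and no neighbours in it overlapped. At4 averaged 711 ± 68.8 FPKM in total mutant and 1094 ± 44.8 FPKM in total wild type, and 203 ± 30.2 FPKM in ribosome-bound mutant and 481 ± 81.1 FPKM in ribosome-bound wild type (SD, n = 3 each). MIR399d was highest in ribosome-bound wild type, then in total wild type and total mutant, and lowest in ribosome-bound mutant, again without overlap. SPX3 was also highest in ribosome-bound wild type, but its total wild-type (21.9 ± 1.19 FPKM) and ribosome-bound mutant (20.3 ± 1.76 FPKM) libraries overlapped. For PHR1 and PHO1 every pair of neighbours overlapped. For SPX1 and SPX2 both ribosome-bound groups lay above both total groups, with overlap between the genotypes on ribosomes and, for SPX1, in total mRNA. PHO2 was highest in total wild type, then in total mutant and ribosome-bound mutant, and lowest in ribosome-bound wild type, with no overlap between neighbours. These orders are of FPKM scaled to the whole library, and a lack of overlap is not a passed test. Between the genotypes in total mRNA, PHO2 and MIR399d did not pass (edgeR adjusted p = 0.43 and 0.343). How many of all tested genes separate in this way was not counted.

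Other microRNA genes of the pathway were at the edge of detection. Of the 5 others of the miR399 family and MIR827, 4 were listed and 2 passed the filter on low values, so those 2 do not stand for the family. MIR399c had 0, 0 and 3 counts on ribosomes of the mutant and 4, 11 and 5 counts in wild type, and MIR827, whose microRNA targets a ubiquitin ligase gene of the pathway, had 4, 1 and 1 counts in the mutant and 12, 9 and 8 counts in wild type. In total mRNA MIR827 had 8, 5 and 8 counts in the mutant and 19, 15 and 20 counts in wild type. On ribosomes MIR827 had a log2 change of -2.17 ± 0.48 (edgeR adjusted p = 0.0086), a call kept without any 1 library. MIR399c passed on ribosomes too (edgeR adjusted p = 0.036), but not without total wild type 1 (0.0519), ribosome-bound wild type 2 (0.136) or ribosome-bound mutant 1 or 2 (0.103 and 0.0945), nor in DESeq2 (0.0563). Its fitted size depends on the zeros and is not given. In total mRNA neither passed (edgeR adjusted p = 0.160 for MIR399c and 0.068 for MIR827), and MIR827 passed with the replicate block (0.0311). Of 48 microRNA genes tested in all, 6 fell on ribosomes of the mutant, a share of 12.5% beside the 12% of all tested genes that fell. They were MIR397a, MIR857, MIR399c, MIR399d, MIR827 and MIR162a, a count made after their values were seen.

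Among 19 tested signalling genes outside the 10, AtVIP1 passed in total mRNA and 3 passed on ribosomes, all of them higher in the mutant. The share of the list that rose was 5.26% in total mRNA and 15.8% on ribosomes, beside 10.4% and 15.4% of all tested genes. AtVIP1, a homolog of a yeast inositol pyrophosphate kinase, rose by 0.37 ± 0.08 on the log2 scale in total mRNA (edgeR adjusted p = 0.0098) and by 0.61 ± 0.08 on ribosomes (adjusted p = 0.0011). SIZ1, a SUMO ligase that acts on PHR1, rose on ribosomes (0.31 ± 0.08, adjusted p = 0.015), as did PDR2 (0.20 ± 0.05, adjusted p = 0.020), an ATPase of the root response to low phosphate. The median of the list was -0.04 in total mRNA and 0.02 on ribosomes. AtVIP1 has no RefSeq symbol and was kept by hand under a RefSeq synonym. Left out of this list and the transport list were 11 identifiers without a RefSeq name. Of 9 of these that were tested, 4 fell in total mRNA and 2 on ribosomes, where 6.54% and 12% of all tested genes fell. With the replicate block 4 of the list passed in total mRNA (2 higher and 2 lower) and 5 on ribosomes (3 higher and 2 lower), where 31.8% and 41.3% of all tested genes passed. Calls were lost for AtVIP1 in total mRNA with scaling by library size alone (adjusted p = 0.0685), for SIZ1 without ribosome-bound wild type 1 (0.055) or mutant 1 (0.0573), and for PDR2 without ribosome-bound wild type 3 (0.0501).

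Of 22 transport genes outside the 10, 14 were tested and 1 passed at each level, where 17% of all tested genes passed in total mRNA and 27.3% on ribosomes. PHF1, which lets PHT1 carriers leave the endoplasmic reticulum, had 26.3, 28.4 and 25.5 FPKM in total mRNA of the mutant and 37.5, 32.8 and 36.1 FPKM in wild type. Its groups did not overlap, and its log2 change was -0.28 ± 0.07 (edgeR adjusted p = 0.028). PHT2;1, the carrier of the chloroplast envelope, rose on ribosomes (0.32 ± 0.09, adjusted p = 0.025). The median of the list was -0.03 in total mRNA and 0.07 on ribosomes. Identifiers without a RefSeq name were left out of this list too. With the replicate block 3 passed in total mRNA (1 higher and 2 lower) and 4 on ribosomes (3 higher and 1 lower). Of all tested genes 31.8% and 41.3% passed with the block. PHT2;1 passed in total mRNA without total mutant 2 (0.34, edgeR adjusted p = 0.0333) and with the block (0.26, adjusted p = 0.00363), beside 0.26 ± 0.09 and 0.073 in the unblocked fit. The call of PHF1 was lost on leaving out wild type 1 or 3 (adjusted p = 0.104 and 0.0657) or mutant 1 or 3 (0.0735 and 0.105) in total mRNA, and that of PHT2;1 without ribosome-bound wild type 1 or 2 (0.0503 and 0.0913) or ribosome-bound mutant 1 (0.0895).

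The output genes of the pathway, mainly but not only enzymes that free phosphate or replace phospholipids, included many that fell. Of 15 tested, 9 fell in total mRNA (60%, where 6.54% of all tested genes fell) and 9 fell on ribosomes (60%, where 12% did), with medians of -0.49 and -0.31. The other 6 at each level did not pass. Of these the acid phosphatase gene PAP26 had log2 changes of 0.23 ± 0.07 in total mRNA (edgeR adjusted p = 0.053) and 0.09 ± 0.07 on ribosomes (0.387). G3Pp1 had 0.06 ± 0.11 on ribosomes (edgeR adjusted p = 0.705), and both are named after their values were seen. Falls in both were seen for NPC4, a phospholipase (-1.18 ± 0.14 and -1.29 ± 0.14), RNS1, a ribonuclease (-1.30 ± 0.29 and -1.46 ± 0.28), MGD2 (-0.59 ± 0.09 and -0.84 ± 0.09) and MGDC (-0.69 ± 0.15 and -0.54 ± 0.15), which make galactolipids, the sulfolipid gene SQD2 (-0.49 ± 0.12 and -0.41 ± 0.12), and the phosphatase genes PEPC1 (-0.72 ± 0.15 and -0.81 ± 0.15) and PS2 (-0.70 ± 0.19 and -0.68 ± 0.19). In total mRNA PLDP2 (-0.54 ± 0.12) and the acid phosphatase gene PAP12 (-0.34 ± 0.09) fell as well, and on ribosomes SRG3 (-0.31 ± 0.09) and PAP17 (-0.28 ± 0.07) did. With the replicate block 11 fell and 1, PAP26, rose in total mRNA, where 15% of all tested genes fell and 16.8% rose. On ribosomes 11 fell with the block, where 20.4% of all tested genes did. The block called SRG3 and PAP17 in total mRNA too (edgeR adjusted p = 0.00543 and 0.0152) and PLDP2 on ribosomes (0.0272). NPC4, MGD2 and PEPC1 kept both calls without any 1 library. Calls in total mRNA were lost for RNS1 and PLDP2 without total mutant 3 (adjusted p = 0.053 and 0.054), for PS2 and SQD2 on leaving out wild type 1 or mutant 2 or 3, for PS2 also wild type 2, and for PAP12 without any 1 total library but mutant 1. Calls on ribosomes were lost for PS2 and MGDC without ribosome-bound wild type 2 or mutant 2 or 3, for SQD2 without any 1 ribosome-bound library but mutant 1, for SRG3 without wild type 1 or mutant 2, and for PAP17 without wild type 1 or 2 or mutant 2. Falls among phosphate starvation genes had already been seen in these data when the list was drawn up, so its direction is not independent evidence.

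**Figure D4:**
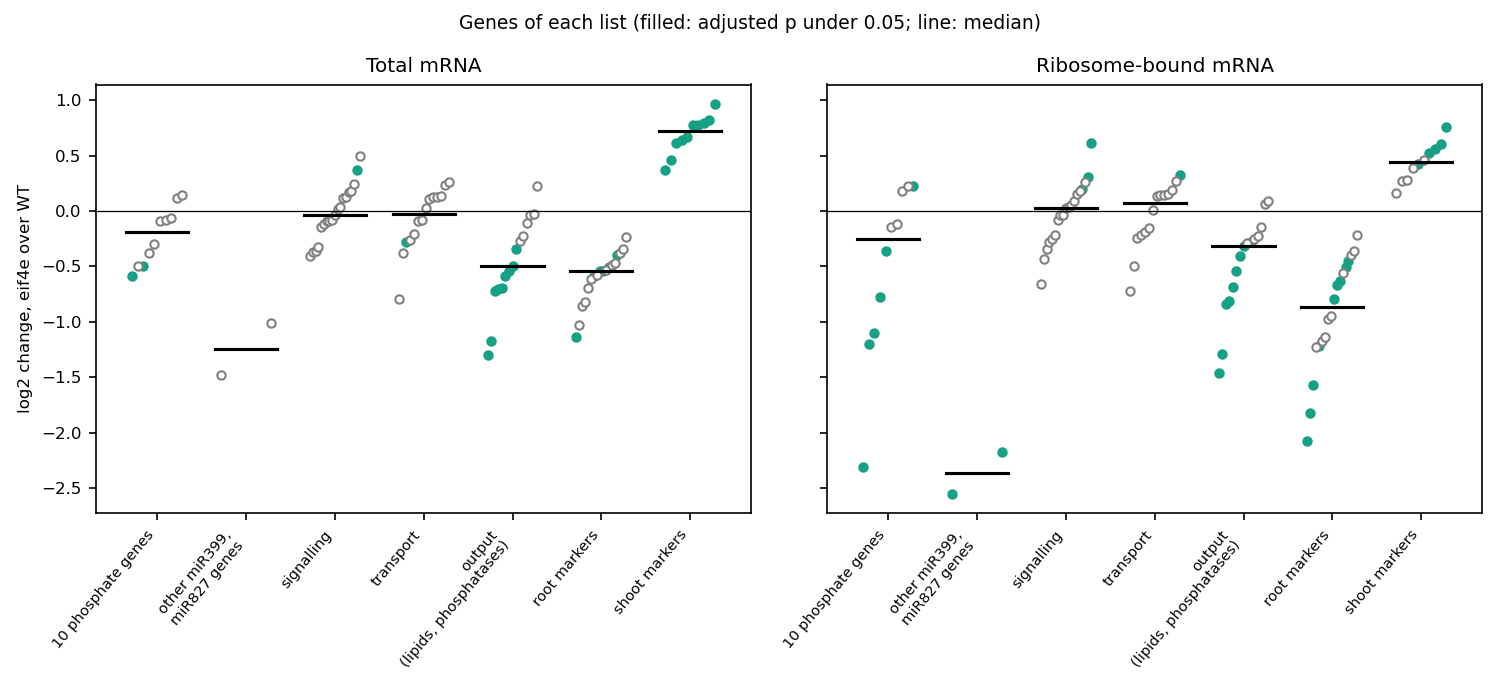
Log2 change in eif4e over WT (vertical axis) of each tested gene of the phosphate lists and of root and shoot markers, in total mRNA (left) and ribosome-bound mRNA (right). Each point is a gene, filled where the adjusted p was under 0.05, and lines are medians. The output genes (medians -0.49 and -0.31) and the root markers (-0.54 and -0.87) lie mostly below 0. The shoot markers, all of them photosynthesis genes, lie above it (0.72 and 0.44).

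Root markers had lower and shoot markers higher medians in the mutant. Of 18 tested root markers 6 fell in total mRNA and 9 on ribosomes, where 6.54% and 12% of all tested genes fell, with medians of -0.54 and -0.87. The other 12 and 9 did not pass. With the replicate block 12 and 13 fell, where 15% and 20.4% of all tested genes fell. Their summed level was 1669 to 2125 FPKM in total mutant and 2390.4 to 3027 FPKM in total wild-type libraries, and 1171 to 1467 FPKM in ribosome-bound mutant and 1749 to 1946 FPKM in ribosome-bound wild-type libraries. Most of this sum is PYK10, a beta-glucosidase gene, at 1551 to 1946 FPKM in total mutant and 2154 to 2763 FPKM in total wild type. PYK10 itself did not pass in total mRNA (-0.34 ± 0.13, edgeR adjusted p = 0.086) or on ribosomes (-0.36 ± 0.13, adjusted p = 0.057). Of 10 shoot markers 10 rose in total mRNA and 5 on ribosomes, where 10.4% and 15.4% of all tested genes rose, with medians of 0.72 and 0.44. All 10 are photosynthesis genes (RBCS1A, CAB1, LHCB2.1, LHCB3, LHCA1, RCA, DRT112, PSAG, LHCB5 and PSBX). No shoot marker of another kind was examined. With the replicate block 10 and 9 rose, where 16.8% and 20.9% of all tested genes rose. Root markers were also scarcer on ribosomes than in total mRNA, with medians of -1.65 in the mutant and -1.39 in wild type. In each genotype 16 of 18 were lower past the threshold, where 29.3% (mutant) and 33.6% (wild type) of all tested genes were. No defining root marker was at 0 in all libraries of a group. The part of these shifts in the values of IPS1, At4, SPX3, PHT1;4 and the output genes was not tested. The marker lists too were chosen with earlier results of these data known, so their counts and direction are not independent evidence.

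The gene whose profile over the 12 libraries was most like that of each phosphate gene was sought among 8492 tested genes with a symbol, by the root mean square difference of log2(FPKM + 1) after centring. At4 was most like TIP4;1, at a difference of 0.23, beside a spread of 0.91 for At4 itself. TIP4;1 averaged 9.63 FPKM in total mutant, 16.6 FPKM in total wild type, 2.44 FPKM in ribosome-bound mutant and 5.58 FPKM in ribosome-bound wild type. IPS1 was most like FTM1 (0.27, beside an own spread of 0.95) and MIR399d like MRD1 (0.36 beside 0.78). MRD1 averaged only 0.88 FPKM in total mutant and 1.71 FPKM in total wild type. It averaged 0.32 FPKM in ribosome-bound mutant and 2.56 FPKM in ribosome-bound wild type, so this match is between low profiles. SPX3 was most like CAM3 (0.17 beside 0.52) and PHT1;4 like FER (0.099 beside 0.49). PHO2 was most like GAUT7 (0.032 beside 0.23), SPX1 like RAC6 (0.062 beside 0.34) and SPX2 like PYR6 (0.055 beside 0.29). PHR1 was most like ATP-PRT2 (0.067 beside 0.14) and PHO1 like ARO4 (0.12 beside 0.24), so their small differences go with small spreads.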

How the data were processed

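Whole seedlings were sequenced as total and as ribosome-bound mRNA with a stranded, poly(A)-selecting kit, per the labels' protocols. The authors deposited, for each library, read counts per gene and FPKM values that the authors derived from the same counts. The submitters' processing notes name TopHat2 2.0.11 and the TAIR10 build. No source used here names the counting program. The mutant and wild-type tables of a replicate list the same genes, each with a count in at least 1 of them, and an unlisted gene was taken as 0. The 12 libraries held 17058704 to 24673644 counts. No pair of replicates agreed within sampling noise (lowest chi-square ratio to its degrees of freedom 7.07).

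Genes with a mean of at least 1 FPKM were fitted with 1 mean per group on TMM-scaled counts in edgeR 4.0.16 (R 4.3.3). Two-sided quasi-likelihood p-values were adjusted by Benjamini-Hochberg over all tested genes, with a threshold of 0.05. SE came from the estimate and its F statistic. FPKM levels carry the SD of 3 libraries. Alternatives were other scalings, DESeq2 1.42.0, limma 3.58.1 on log2(FPKM + 1) and log2(FPKM + 0.1), other filters, the replicate block and left-out libraries.

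Replicate numbers in the labels were taken to pair libraries, because the deviations of same-numbered libraries from their group means correlated by 0.186 to 0.795 in every pair of groups. Libraries of different numbers correlated by up to 0.299. Total mutant 1 was closer to wild type 3 than to wild type 1, in total mRNA (0.271 against 0.246) and on ribosomes (0.299 against 0.186). Ribosome-bound mutant 1 was likewise closer to ribosome-bound wild type 3 than to 1 (0.231 against 0.193). The pairing was thus read from the same libraries that the block compares, and not from the labels alone. The phosphate genes and the lists were chosen with earlier results of these data known. Outside the 10, genes of the pathway lists were named when they passed in a genotype comparison, up to 10 per list. Symbols came from RefSeq (assembly TAIR10.1). List identifiers without a RefSeq name, 11 in all, were left out. All of them came from the signalling and transport lists. Of 9 of them that were tested, 4 passed in total mRNA and 2 on ribosomes, all lower in the mutant. Of all tested genes 6.54% and 12% were lower. Coordinates were used here only to find annotated spans that overlap those of the 10 genes, and sequences were not used.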

Additional observations from a re-analysis of the deposited data

Results flagged for a closer look

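The change of MIR399d in the mutant differed between ribosome-bound and total mRNA by -1.93 ± 0.37 on the log2 scale (edgeR's test of the difference, adjusted p = 0.022). This call was lost in 5 of the 12 fits that left out 1 library, and without replicate 1, 2 or 3 of every group. All 3 mutant libraries lay below all 3 wild-type libraries at each level, with 5 to 8 counts in ribosome-bound mutant and 24 to 36 counts in ribosome-bound wild-type libraries. The change of PDR2 differed in the other direction, by 0.34 ± 0.08 (edgeR adjusted p = 0.035). PDR2 averaged 11.5 ± 0.407 FPKM in ribosome-bound mutant and 10.4 ± 0.308 FPKM in ribosome-bound wild type, and 20.1 ± 0.541 FPKM in total mutant and 24.2 ± 0.782 FPKM in total wild type (SD, n = 3 each). Its call was lost in 10 of the 12 fits that left out 1 library, and kept without ribosome-bound wild type 3 or ribosome-bound mutant 3.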

How the results depend on the processing

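The count of phosphate genes past the threshold depended on the fit in total mRNA. It was 2 in the fit reported, 3 with RLE scaling or a filter at a mean of 5 FPKM, and 4 with scaling by library size, DESeq2 or the replicate block. It was 6 with limma at either pseudocount, and all of these were lower in the mutant. Of the 19170 tested genes 1253 were lower in the fit reported and 1372 with RLE. That number was 3001 with library size, 1522 with DESeq2 and 2879 with the block. Limma had 3635 lower at a pseudocount of 1 and 3418 at 0.1, and the filter at 5 FPKM had 1139 of 14501. Scaling by library size moved the median log2 change of all genes in total mRNA to -0.11. Limma moved it to -0.12 on log2(FPKM + 1) and -0.13 on log2(FPKM + 0.1). For the difference of the changes the count was 1, and 2 with DESeq2 (At4 and PHO2) or limma on log2(FPKM + 1), and 4 with the replicate block. Of all tested genes 772 passed in the fit reported, 1343 with DESeq2, 770 with limma on log2(FPKM + 1) and 1937 with the block. DESeq2 gave no adjusted p for MIR399d in the difference. On ribosomes, and for ribosome-bound against total mRNA in either genotype, the block gave the counts reported, 6, 9 and 9, and it changed no call of the 10 genes beyond those named in the report. Leaving out a library or a replicate number gave 0 to 3 genes in total mRNA, 0 to 6 on ribosomes and 0 to 2 for the difference. For ribosome-bound against total mRNA it gave 6 to 9 in the mutant and 7 to 9 in wild type. Without 1 library 1666 to 3429 of all tested genes passed in total mRNA, 3075 to 5351 on ribosomes and 161 to 1607 for the difference. Without replicate 1, 2 or 3 no phosphate gene passed in total mRNA, where 472, 1995 and 811 of all tested genes did. None passed for the difference, where 0, 0 and 91 did. The count of 0 on ribosomes came without replicate 1, where 12 of all tested genes passed. Over these alternatives no called change of a named gene turned its sign. MIR827 lost its call on ribosomes without replicate 1, 2 or 3 (adjusted p = 0.083, 0.054 and 0.0809). Counts of 5 to 36 limit what MIR399d can show.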
